A study of Mus musculus with 6 samples.

Results

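The genes examined here were 8 carbonic anhydrases, *Car2*, *Car3*, *Car4*, *Car5b*, *Car6*, *Car8*, *Car13* and *Car14*, and the sodium bicarbonate cotransporter *Slc4a4*, in RNA-Seq of inguinal white adipose tissue (iWAT). They make up 9 of the 19445 rows of the gene table, matched by gene symbol. Each of the 9 symbols was on 1 row. The 9 genes were chosen from the genotype comparison of these same mice, with its results known, so their values by genotype are a description, and nothing is supported with the adjusted p-values given beside them. Each transgenic mouse (TG) carried a full-length *Hlx* cDNA under the *aP2* (*Fabp4*) promoter, which is active in fat, and the wild-type mice (WT), the controls, were littermates that lacked it. The transgene was made by injecting hybrid embryos that were then backcrossed to C57BL/6. All mice were 12 weeks old, were labelled male and received no treatment. There were 3 mice per genotype, with 1 library of whole iWAT from each.

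Carbonic anhydrases interconvert carbon dioxide and water with bicarbonate and a proton, and they differ mainly in where they sit. *Car2*, *Car3* and *Car13* encode cytosolic enzymes, *Car5b* a mitochondrial one, *Car4* and *Car14* enzymes anchored in the cell membrane with their active site outside, and *Car6* a secreted one, while *Car8* encodes a related protein without the enzymatic activity. Bicarbonate moves across membranes through transporters of the SLC4 and SLC26 families, and it is the carbon source of carboxylases such as pyruvate carboxylase and acetyl-CoA carboxylase, which supply fat synthesis. *Car3* is known as one of the most abundant transcripts of white fat cells.

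*Hlx*, the gene carried by the transgene, was at 110, 79.6 and 99.5 FPKM in the transgenic mice and at 6.88, 7.35 and 8.14 FPKM in the wild-type mice. FPKM is scaled for transcript length and for the number of mapped fragments, so levels of genes of unlike length can be set side by side. *Xist*, the RNA that coats the silenced X of females, was at 20.2 to 33.6 FPKM in the 6 mice, and 28 Y-linked loci were at 0 in every mouse, which goes against the labelled sex. The adipocyte markers were all detected, and their summed level was 26260 to 33128 FPKM in controls and 28909 to 34257 FPKM in transgenic mice. Of 8 adipocyte markers, *Adipoq* and *Retn* fell and the other 6 were not called, and 7 of 8 brown adipocyte markers rose, where 11.6% of all tested loci rose and 7.03% fell. Of the other marker lists, 4 of 7 macrophage and 1 of 6 lymphocyte markers fell and 2 of 6 Schwann cell markers rose. With limma 0 of 7 epithelial markers were called. At an unadjusted p under 0.05, 0 epithelial markers were higher and 1 lower, and the share of all tested loci there was not counted. The absolute depth is unknown, and relative to wild-type replicate 3 the depth read from the steps between low values was 0.692 to 1.14 in the transgenic and 0.943 to 1.41 in the other wild-type mice.

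The question put to the 9 genes was how their RNA differed between *Hlx* transgenic and wild-type iWAT. *Car3*, by far the most abundant, averaged 2.00 times more FPKM in wild-type than in transgenic mice, and *Car5b* 1.24 times more. *Car14* was close to 0 in wild-type iWAT and averaged 26.9 times more FPKM in transgenic iWAT. *Car2*, *Slc4a4*, *Car4* and *Car13* averaged 1.33 to 1.68 times more in transgenic mice, and *Car8* averaged 1.06 times more in wild-type mice. Since whole tissue was sequenced, fewer cells of a type and less RNA per cell cannot be told apart.

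Of the 9 genes, 8 had a mean over 1 FPKM in at least 1 genotype and were tested within the fit across 11692 loci (limma on log2(FPKM + 1), Benjamini-Hochberg adjustment). *Car14*, *Car2* and *Car13* were called higher at an adjusted p under 0.05, beside 11.6% of all tested loci. With limma 0 were called lower, beside 7.03% of all tested loci. At an unadjusted p under 0.05, 5 of the 8 were higher and 2 were lower. The share of all tested loci at this looser threshold was not counted. *Car14*, *Car2*, *Car13* and *Slc4a4* were higher in each transgenic mouse than in each wild-type mouse, which held for 22.8% of tested loci. *Car3* and *Car5b* were lower in each transgenic mouse, as were 20.1% of tested loci, while *Car4* and *Car8* overlapped. The median log2 fold change was 0.39 over the 8 genes and -0.01 over all tested loci. As the genes were picked from this comparison, nothing is read from these counts. An exact two-sided permutation test of a single gene, 3 mice against 3, cannot give a p below 0.1.

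**Figure D1:**
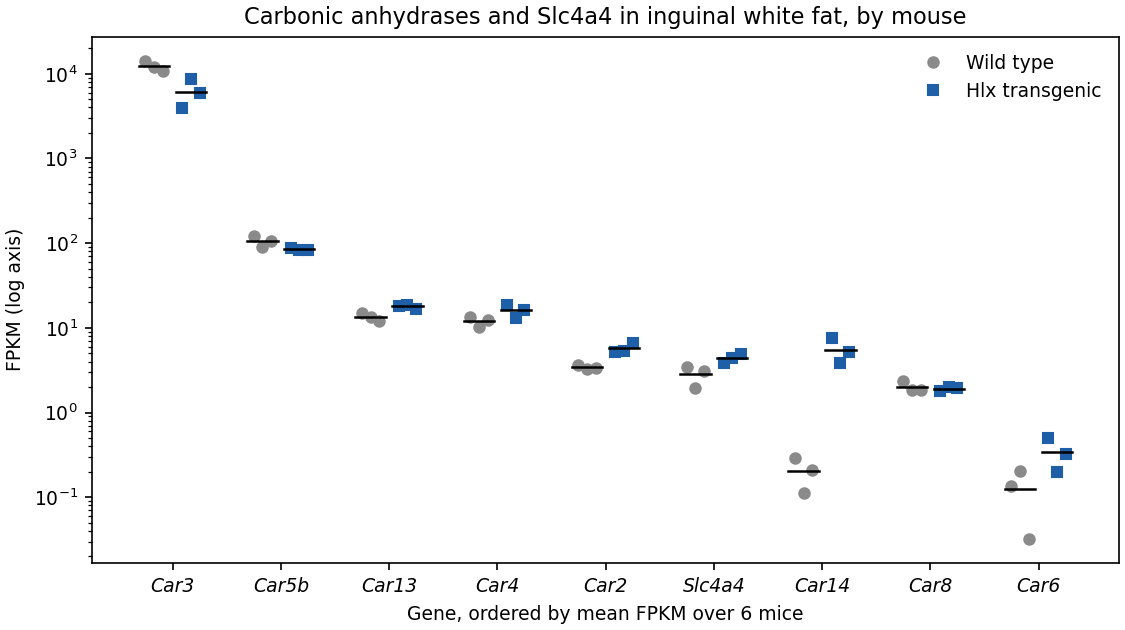
Level of each of the 9 genes in each mouse, in FPKM on a log axis, with wild-type mice as grey circles, transgenic mice as blue squares and the mean of each genotype as a line. *Car3* lies above all others in both genotypes, and *Car14* moves from a mean of 0.206 FPKM in wild-type mice to 5.52 FPKM in transgenic mice.

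The order of levels was the same in both genotypes at the top. In wild-type iWAT *Car3* came first, followed by *Car5b*, by *Car13* and *Car4*, whose ranges overlapped, and by *Car2*, *Slc4a4* and *Car8*, of which *Slc4a4* overlapped both others. *Car14* and *Car6* were lowest and overlapped each other. In transgenic iWAT *Car14* stood between *Car2* and *Slc4a4* and overlapped both, and *Car8* and *Car6* followed without overlap.

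Among the cytosolic enzymes, *Car3* was at 14274, 11992 and 10637 FPKM in the wild-type mice and at 3944, 8579.5 and 5914 FPKM in the transgenic mice. Every wild-type mouse was above every transgenic mouse, and the transgenic mice spread more widely, with a coefficient of variation of 37.9% against 14.9%. The means were 12301 ± 1838 FPKM (SD, n = 3) in the controls and 6146 ± 2326 FPKM (SD, n = 3) in the transgenic mice. On the log2 scale the difference was -1.06 (standard error 0.33, 95% interval -1.84 to -0.28, limma adjusted p = 0.0658), so *Car3* did not pass the threshold. *Car3* was the third most abundant row of the whole table in each mouse except transgenic replicate 1, where it ranked 8. It took 2.28% to 2.75% of the summed FPKM in wild-type mice and 0.728% to 1.67% in transgenic mice.

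*Car3* is also expressed in skeletal muscle, mainly in slow fibres, and muscle marker RNA differed between these libraries. Of 10 skeletal muscle markers, 9 had a row of their own, and their summed level was 5.66, 124 and 31.2 FPKM in the wild-type mice and 84.0, 638 and 121 FPKM in the transgenic mice. With limma 0 of the 9 were called, beside 11.6% of all tested loci called higher and 7.03% lower. At an unadjusted p under 0.05, 2 were higher, and the share of all tested loci there was not counted. All 9 overlapped between the genotypes, whereas 22.8% of tested loci were higher and 20.1% lower in each transgenic mouse. *Myh4*, a fast myosin heavy chain, was at 0 in wild-type replicate 1. The 9 markers are general or fast-fibre genes. Slow-fibre genes were not put on the list and were not looked at, and the part of muscle in the *Car3* values was not tested. Transgenic replicate 2 had both the highest muscle marker sum and the most *Car3* RNA of its genotype, while wild-type replicate 1 had the lowest sum and the most *Car3* RNA of all mice. Without transgenic replicate 2 the log2 fold change of *Car3* was -1.34 and passed the threshold (limma adjusted p = 0.0375). It also passed with eBayes without trend (adjusted p = 0.0408) and with sample quality weights (adjusted p = 0.0416). The remaining 11 of the 14 other fits did not pass, with the highest adjusted p, 0.436, under no filter on low values. Quantile normalization, which gives equal ranks equal values, put it at -0.44 (adjusted p = 0.415). *Car3* held rank 3 in every mouse but transgenic replicate 1 (rank 8), so that fit cannot measure its difference between the genotypes.

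**Figure D2:**
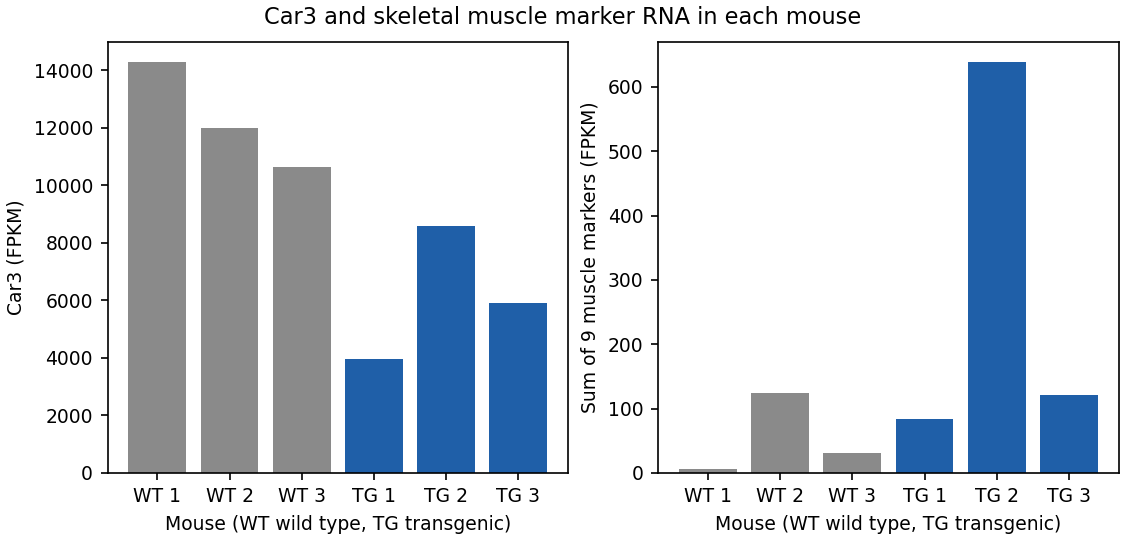
*Car3* (left) and the sum of 9 skeletal muscle markers (right) in each mouse, as bars in FPKM from 0, with wild-type mice in grey and transgenic mice in blue. The wild-type mice hold the 3 highest *Car3* values, and the highest muscle sum, 638 FPKM, is that of transgenic replicate 2.

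*Car2*, the fast cytosolic enzyme found in many cell types, was at 3.59, 3.26 and 3.37 FPKM in the wild-type mice and at 5.15, 5.35 and 6.67 FPKM in the transgenic mice. The genotypes did not overlap, and the wild-type values were close together. *Car2* rose by 0.60 on the log2 scale (standard error 0.11, limma adjusted p = 0.0113) and kept its call in all 14 other fits at this threshold, but not at an adjusted p under 0.01. Red blood cells are rich in *Car2* protein, and erythroid markers are therefore set beside it. *Alas2*, the erythroid enzyme of haem synthesis, was at 2.72 to 4.53 FPKM in controls and 6.58 to 9.29 FPKM in transgenic mice (limma adjusted p = 0.0133). The shared beta-globin row was at 452 to 824 FPKM against 952 to 1118 FPKM. The 2 shared alpha-globin rows overlapped between the genotypes. The part of blood cells in the *Car2* difference was not tested.

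*Car13*, another cytosolic enzyme, was at 15.1, 13.4 and 11.9 FPKM in the wild-type mice and at 18.3, 18.7 and 16.7 FPKM in the transgenic mice. The genotypes did not overlap, but the gap between the lowest transgenic and the highest wild-type mouse was small. *Car13* rose by 0.39 on the log2 scale (standard error 0.10, limma adjusted p = 0.0378). The call was lost without transgenic replicate 1 (adjusted p = 0.095), 2 (0.0832) or 3 (0.072), without wild-type replicate 2 (0.0998) or 3 (0.105), and with no filter on low values (0.0566).

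These 3 cytosolic genes are neighbours. In the GENCODE annotation of mm10, *Car13*, *Car1*, *Car3* and *Car2* lie in this order within 259 kb of chromosome 3, from 14641727 to 14900770, with *Car1* on the reverse strand and the others on the forward strand. *Car3* and *Car2* are 13.7 kb apart, and their log2 fold changes had opposite signs, -1.06 and 0.60. *Car1*, an enzyme best known from red blood cells, averaged 1.35 FPKM in controls and 1.33 FPKM in transgenic iWAT, with a log2 fold change of -0.07 (limma adjusted p = 0.863). *Car14* is on the same chromosome but outside this cluster.

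**Figure D3:**
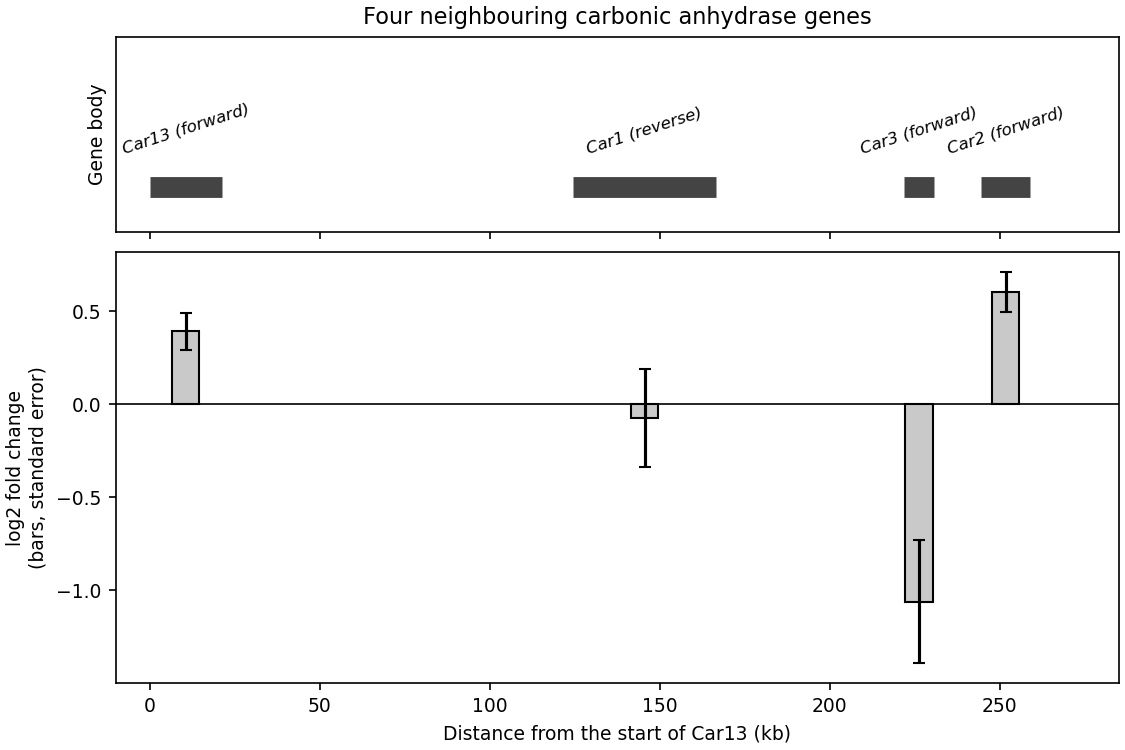
The 4 neighbouring carbonic anhydrase genes of chromosome 3, drawn to scale as distance in kb from the start of *Car13* (top), and the log2 fold change of each, transgenic minus wild type, with its standard error (bottom). *Car13* and *Car2* at the ends are above 0, *Car3* is at -1.06 and *Car1* is near 0.

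*Car5b*, the mitochondrial enzyme, was the second most abundant of the 9 genes, at 122, 89.7 and 105 FPKM in the wild-type mice and at 88.7, 83.0 and 82.7 FPKM in the transgenic mice. All transgenic mice were below all wild-type mice, though transgenic replicate 1 and wild-type replicate 2 nearly met. The transgenic mice were much closer together, with a coefficient of variation of 4.01% against 15.2%. The difference on the log2 scale was -0.30 (standard error 0.12, limma adjusted p = 0.121), which did not pass the threshold. Of the 14 other fits it passed only with quantile normalization (-0.41, adjusted p = 0.0348). The remaining 13 had adjusted p from 0.0664 to 0.253. The row of *Car5b* spans chromosome X from 163935443 to 164028010 together with its neighbour *Zrsr2*. By the GENCODE annotation of mm10 the gene bodies are 18160 bases apart and share 0 exon bases. Whether this holds for the annotation behind the deposited values is unknown.

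*Car14*, a transmembrane enzyme whose active site faces the outside of the cell, was at 0.292, 0.113 and 0.212 FPKM in the wild-type mice and at 7.57, 3.86 and 5.14 FPKM in the transgenic mice. The lowest transgenic mouse was far above the highest wild-type mouse. *Car14* rose by 2.40 on the log2 scale (standard error 0.21, limma adjusted p = 0.000904), and the call was kept in all 14 other fits and at an adjusted p under 0.01, with log2 fold changes between 2.18 and 4.19. *Car14* passed the filter on low values only through the transgenic mice. The highest of these log2 fold changes came with a pseudocount of 0.1, since the value of 1 understates the change of a gene this low in wild-type iWAT. *Car14* (chromosome 3, 95897768 to 95904691, reverse strand in GENCODE) overlaps *Aph1a*, a gamma-secretase subunit, on the opposite strand. They share 445 exon bases, 17.5% of those of *Car14*, and reads of a kit that does not mark strand cannot be parted there. *Aph1a* averaged 5.51 FPKM in controls and 7.58 FPKM in transgenic iWAT, a log2 fold change of 0.40 (limma adjusted p = 0.0376).

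Promoter sequence from RefSeq (GRCm38.p6) was found for 5 of the 9 genes, *Car4*, *Car5b*, *Car6*, *Car14* and *Slc4a4*, the last with 2 starts. Shown are the 250 bases before the start of *Car14*, the gene with the greatest rise among the 9, and of *Car5b*, the most abundant of the genes with a window. Hlx is a homeodomain protein, and many homeodomains bind sites with the core TAAT, so each TAAT on either strand (read as ATTA on the other) is in capitals. The paper searched with a motif of Hlx itself, and some Hlx sites it lists hold TAAT on neither strand. The capitals are therefore not a search for Hlx sites. The *Car14* window is chr3:95904686-95904935 and the *Car5b* window chrX:164028011-164028260, both on the reverse strand and written 5′ to 3′.
*Car14*: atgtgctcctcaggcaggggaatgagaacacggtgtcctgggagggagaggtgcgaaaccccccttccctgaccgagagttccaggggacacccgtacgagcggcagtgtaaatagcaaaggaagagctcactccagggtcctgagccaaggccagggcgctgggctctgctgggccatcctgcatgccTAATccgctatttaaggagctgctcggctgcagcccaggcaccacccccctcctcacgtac
*Car5b*: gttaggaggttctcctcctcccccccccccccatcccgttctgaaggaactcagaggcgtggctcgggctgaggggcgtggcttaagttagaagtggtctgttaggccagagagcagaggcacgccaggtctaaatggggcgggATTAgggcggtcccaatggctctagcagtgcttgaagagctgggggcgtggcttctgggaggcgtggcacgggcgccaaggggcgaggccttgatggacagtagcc

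The *Car14* and *Car5b* windows each held 1 match, *Car6* held 2, the downstream start of *Slc4a4* held 1, and *Car4* and the upstream start of *Slc4a4* held 0. TAAT was present in 54.8% of the 32536 RefSeq windows of this length, and a match is only a description of the letters in the window. TATAAA, the letters of a TATA box, was in 12.3% of all windows and in 0 of these 6. The *Car14* window had 62.0% GC and 10 CpG, the *Car5b* window 63.6% and 12, and the upstream *Slc4a4* window 82.0% and 44, beside medians of 52.4% and 6 over all windows.

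*Car4*, a membrane enzyme held by a lipid anchor and known from capillary endothelium, was at 13.5, 10.1 and 12.5 FPKM in the wild-type mice and at 18.7, 13.2 and 16.2 FPKM in the transgenic mice. The genotypes overlapped, since transgenic replicate 2 was just below wild-type replicate 1. The difference on the log2 scale was 0.38 (standard error 0.15, limma adjusted p = 0.115). Of 8 endothelial markers, *Kdr* and *Emcn* rose and *Cldn5* fell, beside 11.6% and 7.03% of all tested loci. The summed level of the 8 was 177 to 185 FPKM in controls and 179 to 188 FPKM in transgenic mice.

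*Slc4a4*, which carries sodium and bicarbonate together across the cell membrane, was at 3.46, 1.95 and 3.12 FPKM in the wild-type mice and at 3.85, 4.44 and 4.93 FPKM in the transgenic mice. The genotypes did not overlap, with wild-type replicate 2 the lowest. On the log2 scale the difference was 0.51 (standard error 0.17, limma adjusted p = 0.079). Of the 14 other fits it passed the threshold only with sample quality weights (adjusted p = 0.0342). The remaining 13 had adjusted p from 0.0675 to 0.199.

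*Car8* and *Car6* were the lowest in transgenic iWAT. *Car8* was at 2.36, 1.87 and 1.82 FPKM in the wild-type mice and at 1.81, 1.98 and 1.93 FPKM in the transgenic mice, with a log2 fold change of -0.05 (95% interval -0.31 to 0.22, limma adjusted p = 0.782). *Car6* was at 0.137, 0.205 and 0.0322 FPKM in the wild-type mice and at 0.496, 0.197 and 0.326 FPKM in the transgenic mice. These overlapped and were too low to be tested.

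Summed over all 16 carbonic anhydrases with a row, the level was 10782 to 14441 FPKM in controls and 4109 to 8722 FPKM in transgenic mice, and *Car3* made up 98.7% to 98.9% and 96.0% to 98.4% of it. Without *Car3* the sums overlapped, at 130 to 167 FPKM against 142 to 165 FPKM. The makeup of this remainder differed between the genotypes. *Car5b* was 68.9% to 72.8% of it in wild-type and 53.9% to 58.4% in transgenic mice, and *Car14* was 0.0868% to 0.174% and 2.72% to 4.60%. With *Car5b* left out too, the sum was 39.6 to 45.5 FPKM in controls and 59.2 to 76.0 FPKM in transgenic mice.

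Of the 8 other carbonic anhydrases, 6 were tested, of which 2 rose and 1 fell, beside 11.6% and 7.03% of all tested loci. *Car12*, a transmembrane enzyme like *Car14*, was at 0.261, 0.351 and 0.365 FPKM in wild-type and 2.48, 1.36 and 2.47 FPKM in transgenic mice (log2 fold change 1.21, limma adjusted p = 0.00576). *Car11*, which like *Car8* lacks the enzymatic activity, was at 4.51, 3.98 and 4.13 FPKM against 13.8, 9.46 and 8.78 FPKM (1.14, adjusted p = 0.00451). Both kept their calls in all 14 other fits, and neither overlapped, although *Car12* passed the filter on low values only through the transgenic mice. *Car9*, the membrane enzyme known for induction by low oxygen, fell from 1.17, 1.72 and 1.33 FPKM to 0.310, 0.776 and 0.320 FPKM (-0.72, adjusted p = 0.0301). *Car9* passed the filter only through the wild-type mice, where it is high, and with a mean of 0.938 FPKM over all 6 mice it was not tested under a filter on that mean. The call was lost without any mouse but transgenic replicate 2, with adjusted p from 0.053 to 0.0922. *Car9* had 2 rows, and these values and the sums above use only the row of higher mean FPKM. *Car7*, a cytosolic enzyme, averaged 1.68 FPKM in controls and 2.17 FPKM in transgenic mice and overlapped (adjusted p = 0.533).

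**Figure D4:**
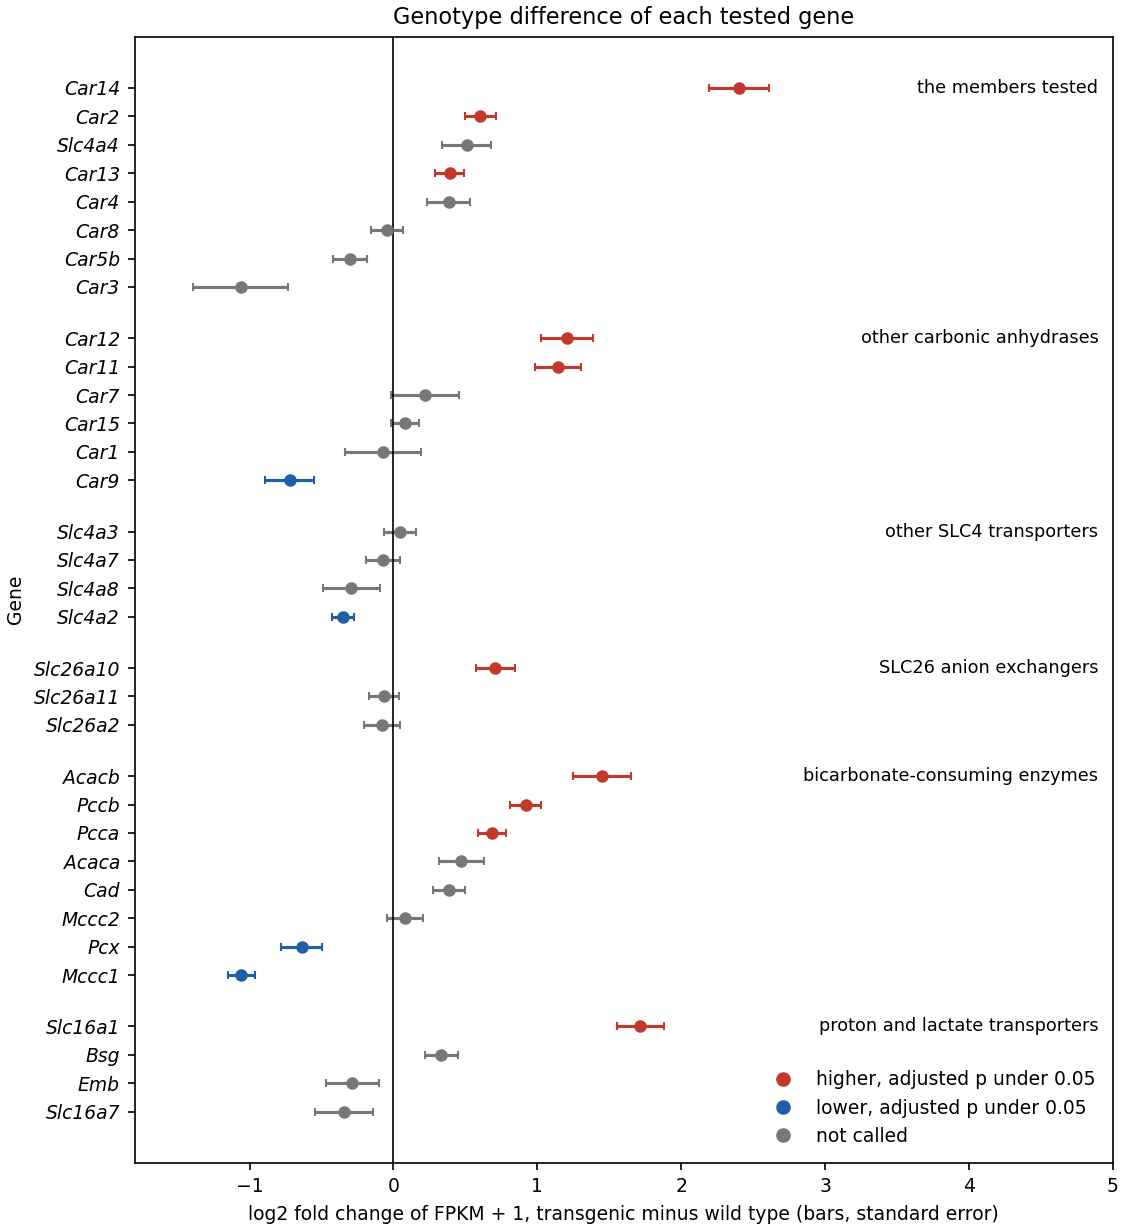
Log2 fold change of FPKM + 1, transgenic minus wild type, with its standard error, for the 8 tested genes of the 9 (labelled as members) and for the tested genes of the other lists, with genes called higher in red, called lower in blue and not called in grey. *Car14* at 2.40 lies farthest above 0, and *Car3* at -1.06 and *Mccc1* at -1.06 farthest below.

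Of 9 other SLC4 transporters, 4 were tested, and *Slc4a2*, an exchanger of chloride for bicarbonate, fell from 11.8, 12.3 and 11.9 FPKM to 8.75, 9.92 and 8.97 FPKM (log2 fold change -0.35, limma adjusted p = 0.0228). Its call was lost without any mouse but transgenic replicate 2 (adjusted p from 0.0558 to 0.0814). *Slc4a7*, a sodium bicarbonate cotransporter related to *Slc4a4*, averaged 3.56 FPKM in controls and 3.35 FPKM in transgenic mice and overlapped (adjusted p = 0.696). Of 10 SLC26 anion exchangers, 8 had a row of their own and 3 were tested. *Slc26a10* rose from 0.561, 0.676 and 0.709 FPKM to 1.91, 1.34 and 1.86 FPKM (0.71, adjusted p = 0.0138), a call that was lost without transgenic replicate 3 (adjusted p = 0.0528). *Slc26a10* passed the filter only through the transgenic mice. *Slc26a2* and *Slc26a11*, the most abundant of the 8 with a row of their own, were not called (log2 fold changes of -0.08 and -0.06).

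Of 9 enzymes that use bicarbonate, 8 were tested, and 3 rose and 2 fell, beside 11.6% and 7.03% of all tested loci. *Acacb*, the acetyl-CoA carboxylase at the mitochondrial surface, rose from 59.7, 37.9 and 34.9 FPKM to 107, 123 and 129 FPKM (log2 fold change 1.45, limma adjusted p = 0.00427). *Pccb* and *Pcca*, the subunits of propionyl-CoA carboxylase, rose by log2 fold changes of 0.92 and 0.68 (adjusted p = 0.00234 and 0.00532). *Mccc1*, a subunit of the carboxylase of leucine breakdown, fell from 101, 91.6 and 91.5 FPKM to 50.0, 41.9 and 43.4 FPKM (-1.06, adjusted p = 0.00104). *Pcx*, pyruvate carboxylase, fell from 872, 736 and 844 FPKM to 609, 506 and 466 FPKM (-0.64, adjusted p = 0.0248). That call was lost without transgenic replicate 2 or 3, without wild-type replicate 1 or 3 and with no filter on low values (adjusted p from 0.052 to 0.0883). *Acaca*, the cytosolic acetyl-CoA carboxylase, was the most abundant of the list over the 6 mice. It was at 504 to 727 FPKM in controls and 807 to 824 FPKM in transgenic mice (0.47, adjusted p = 0.0774). Of the 14 other fits it was called only without wild-type replicate 2 (0.62, adjusted p = 0.0427). Quantile normalization put it at 0.15 (adjusted p = 0.553).

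Of 10 proton and lactate transporters and their partners, 9 had a row of their own and 4 were tested. *Slc16a1*, a monocarboxylate carrier that moves lactate with a proton, rose from 10.8, 13.1 and 10.6 FPKM to 51.1, 34.8 and 35.8 FPKM (log2 fold change 1.72, limma adjusted p = 0.00112). Its chaperone *Bsg* was at 228 to 284 FPKM in controls and 308 to 344 FPKM in transgenic mice, without overlap (0.33, adjusted p = 0.0843). Over all 46 other genes listed, 25 were tested, 7 rose and 4 fell, beside 11.6% and 7.03% of all tested loci, and the median log2 fold change was 0.08. From these counts nothing particular to the lists is read.

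The tested loci whose pattern over the 6 mice was most like that of *Car3* were *Cited2*, *Igf1* and *Nnmt*. Likeness was the mean absolute difference between log2(FPKM + 1) values, each centred on its own gene's mean, and it was 0.102, 0.109 and 0.122. *Cited2*, a transcriptional coregulator, averaged 27.6 FPKM in controls and 13.3 FPKM in transgenic mice. *Igf1*, a growth factor, averaged 82.3 FPKM and 40.0 FPKM, and *Nnmt*, a methyltransferase of nicotinamide, 111.5 FPKM and 56.9 FPKM. In all of them, as in *Car3*, transgenic replicate 2 was the highest of its genotype and wild-type replicate 1 the highest of all. The loci most like *Car5b* were *Gucy1a3*, *Poc1b* and *Ctso*, with differences of 0.029, 0.039 and 0.042. Each was highest in wild-type replicate 1, with the transgenic mice below all wild-type mice. As the loci of both genes were chosen for likeness, the shared order of mice follows largely from that choice, and nothing is read from it.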

How the data were processed

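RNA-Seq libraries of iWAT (TruSeq v2 kit, single-end reads) from 3 *Hlx* transgenic and 3 wild-type mice were compared. The authors mapped reads to mm10 and deposited FPKM values per gene locus and mouse. The submitters' processing notes name CASAVA 1.8.2, TopHat2 2.0.9, Bowtie2 2.1.0 and Cufflinks 2.2.1. The annotation and options are not given in the sources used here. No reads were used here, and depth in reads, and with it the counting precision of low values, is unknown.

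Loci with a mean over 1 FPKM in at least 1 genotype (11692 of 19445) were tested on log2(FPKM + 1) with limma 3.58.1 in R 4.3.3 (lmFit, eBayes with trend, two-sided, Benjamini-Hochberg adjustment, no covariates), after the script was tested on simulated data. Fold changes are on this scale, which understates the change of low genes, and ratios are of mean FPKM. Rows with several symbols (433) were kept as listed. Row starts were read as counted from 0, since 7042 of 17867 then match a RefSeq start, against 503 otherwise. The labels number mice within each genotype, and nothing says that equal numbers pair them. The alternatives were a pseudocount of 0.1, the low-value filter removed or set on all 6 mice together, eBayes without trend, median-ratio scaling, quantile normalization, weights for sample quality, a replicate block, each mouse left out and an adjusted p under 0.01. Some marker values are not reported here. The text names the 9 genes, of the other lists every gene called and the pair of highest mean level, and the 3 loci most like each of *Car3* and *Car5b*. The 9 genes and the lists were chosen with earlier results of these data known. Figures were drawn with matplotlib 3.10.9 in Python 3.11.15.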

Additional observations from a re-analysis of the deposited data

How the results depend on the processing

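Over 32 named genes and their alternative settings, 407 of 447 values kept their direction and their side of the threshold, 29 lost and 7 gained a call, and 4 turned direction. The count of loci higher in transgenic mice ranged from 779 to 1277 with 1 mouse left out and was 569 at an adjusted p under 0.01. The count lower ranged from 327 to 885 and was 199. Of the 9 genes, only *Car14* (1 gene) was higher at that stricter value. The number lower was 1 with eBayes without trend and with sample quality weights (*Car3*), 1 with quantile normalization (*Car5b*) and 0 to 1 with 1 mouse left out. Of the other listed genes, 1 was lower at the stricter value and 1 to 3 with 1 mouse left out. With 1 mouse left out, log2 fold changes ranged from -0.094 to 0.031 for *Car8* (0.031 without wild-type replicate 1), from -0.014 to 0.36 for *Car7* (-0.014 without transgenic replicate 1), from -0.15 to 0.0079 for *Slc4a7* and from -0.19 to 0.024 for *Slc26a2* (0.0079 and 0.024 without transgenic replicate 2). The cause was not tested.

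Mice with equal replicate numbers did not deviate together (correlations across loci of 0.0129, 0.0344 and 0.0701). With the replicate block, 1230 loci were higher and 656 lower, and 4 of the 9 genes were higher, *Car4* being added (adjusted p = 0.0324). *Car6* and the wild-type values of *Car14* lie under 1 FPKM, and how far depth limits such values is unknown. Summing several rows per symbol was not run for the 9 genes, as each has 1 row, nor for *Car9*, which has 2. *Car9* gave no value with a filter on the mean of all 6 mice.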
